A study of Mus musculus with 6 samples.

Results

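The 9 genes described here encode receptors of the common gamma-chain cytokine family and feedback inhibitors of their signal. Il2ra, Il2rb, Il7r, Il15ra and Il21r encode receptor chains, and Socs1, Socs2, Socs3 and Cish encode members of the suppressor of cytokine signalling (SOCS) family. They were listed by name, and all 9 of them, of 22180 genes measured, had at least 1 array row annotated to that gene alone. They had 12 rows in all, and Socs2, Socs3 and Cish had 2 rows each. Of a gene with several rows, the brightest by its mean of the 6 arrays is used, and the other is given beside it.

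The common gamma chain is shared by the receptors of interleukin-2, interleukin-4, interleukin-7, interleukin-9, interleukin-15 and interleukin-21. The receptors signal through the kinases Jak1 and Jak3 to STAT transcription factors, chiefly Stat5a and Stat5b for interleukin-2, interleukin-7 and interleukin-15. STAT factors in turn induce Cish and the Socs genes, whose proteins bind the receptors or kinases and damp the signal. Invariant natural killer T (iNKT) cells are lipid-reactive T cells that need the transcription factor PLZF for their development. Interleukin-15 acts on them through Il2rb and supports the interferon-gamma-producing NKT1 subset, and interleukin-7 acts through Il7r.

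RNA of mouse iNKT cells was measured on whole-transcript microarrays, 3 of wild-type (WT) mice and 3 of PLZF_ON mice, whose PLZF protein is a permanently acetylated form. Both groups carry the label iNKT cells; the sources used here do not give the organ, the age of the animals, how cells were isolated or what drives the altered PLZF. Whether each array holds a different animal is not stated, so the p-values measure only how these samples vary, and that variation may be technical. The study names replicates 1 and 2 of each group as those it analysed, and the comparison over these 4 arrays is given first, with that over all 6 beside it.

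PLZF_ON replicate 3 stood apart from the other arrays. Its correlations with them lay between 0.895 and 0.898 across rows, against 0.957 to 0.973 among the other 5, and its values were less spread (SD 1.79 against 1.97 to 2.01). Of the rows at or above the median level, 59.5% had a lower mean in PLZF_ON over all 6 arrays, against 49.89% over the 4. The 6-array differences of the 9 genes are therefore given with and without that array. T cell markers were above background for 8 of 8 measured genes, with a summed log2 level of 13.48 to 13.63 in WT and 13.02 to 13.61 in PLZF_ON. Background was taken as 5.21, the 95th percentile of the mean log2 levels of 1394 olfactory and vomeronasal receptor genes. Of the B cell markers, 0 of 5 lay above it, and of the myeloid markers 2 of 6 (Cd68 and Itgam). The myeloid marker Lyz2 was at 6.58 in PLZF_ON replicate 3 and between 3.96 and 4.48 on the other arrays. Cd68 went the other way, at 5.32 in that array and between 6.45 and 6.95 on the others. The 6 myeloid markers had a summed log2 level of 7.90 there and of 7.65 to 7.81 on the others. The 3 epithelial markers measured (Epcam, Krt8 and Krt18) had a summed log2 level of 7.51 in that array and of 6.58 to 6.67 on the others. The part of these markers in the 6-array values was not tested.

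All 9 receptor and SOCS genes had a lower mean in PLZF_ON than in WT over the 4 arrays, with a median log2 difference of -0.33. Of all 23521 rows tested, 50.7% had a lower mean, and the median difference was 0.00 (-0.0035). None of the 9 passed limma after adjustment over all rows, where 0.17% passed (40 rows). At an unadjusted p under 0.05, 2 of the 9 were lower, Il2rb and Socs3, against 4.53% of all rows, and 0 were higher, against 4.88%. In 7 of the 9 both PLZF_ON arrays lay below both WT arrays, as they did in 19.3% of all rows. The same 7 genes, all but Il7r and Il15ra, also lay below all 3 WT arrays in both PLZF_ON replicates 1 and 2, against 13.7% of rows. The 9 genes were read from the same arrays, and their values are not independent of each other. Without PLZF_ON replicate 2 the median was -0.18, with 7 of 9 lower, and without PLZF_ON replicate 1 it was -0.52.

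Over all 6 arrays the mean of all 9 was again lower, against 45.1% of all rows and 59.5% of the brighter rows, and their median was -0.28. Il2rb, Il2ra, Il21r, Socs1 and Cish did not overlap between the groups, 5 of 9 against 6.22% of all rows and 10.4% of the brighter rows. Ranked within each array, which removes the narrower spread of PLZF_ON replicate 3, Il2rb, Il2ra and Cish did not overlap, 3 of 9 against 6.87% of all rows. At an unadjusted p under 0.05, 2 were lower (Il2rb and Cish), against 3.32% of rows, and 0 higher, against 2.45%. None of the 9 passed after adjustment, where 0.0935% of rows did (22 rows).

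**Figure D1:**
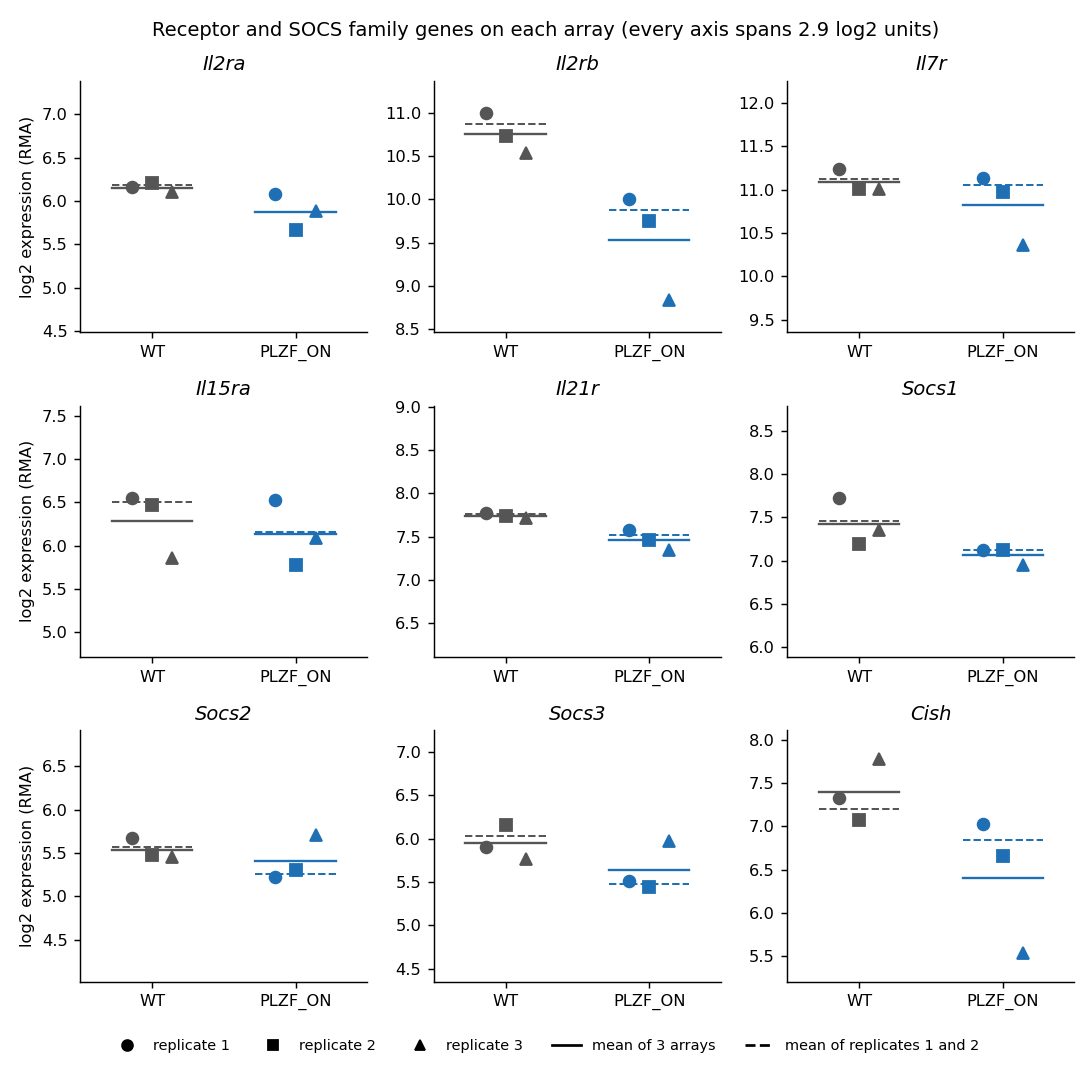
Log2 expression of the 9 genes on each of the 6 arrays, WT in grey and PLZF_ON in blue, with circles, squares and triangles for replicates 1, 2 and 3; solid lines are means of 3 arrays and dashed lines means of replicates 1 and 2. Il2rb lay between 10.53 and 11.00 in WT and between 8.84 and 10.01 in PLZF_ON, while Il7r and Il15ra overlapped between the groups.

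Il2rb encodes CD122, the beta chain through which both interleukin-2 and interleukin-15 signal. In the order of the replicates, as for every gene below, WT arrays read 11.00, 10.73 and 10.53 on the log2 scale and PLZF_ON arrays 10.01, 9.76 and 8.84. Every PLZF_ON array lay below every WT array, and the nearest values of the groups were 10.01 and 10.53. Over the 4 arrays the log2 difference was -0.98, or 1.98-fold lower (SE 0.16, n = 2 arrays per group, 95% interval -1.39 to -0.58, limma unadjusted p = 0.000938, adjusted p = 0.116). It did not pass the adjusted threshold, and ranked 190th of 23521 rows by p and 154th by the size of the fall in mean. Over all 6 arrays the difference was -1.22, with n = 3 per genotype (SE 0.31, limma adjusted p = 0.369), and without PLZF_ON replicate 3 it was -0.87 (SE 0.17, limma adjusted p = 0.115). Ranked within each array, Il2rb stood at percentiles 99.4, 99.3 and 99.3 of all tested rows in WT and at 98.7, 98.3 and 97.4 in PLZF_ON. In such bulk samples fewer cells of a type and less RNA per cell cannot be told apart.

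CD122 is known as a surface marker of NKT1 cells, and Tbx21 encodes T-bet, a transcription factor known to promote its expression. Tbx21 was at 8.76, 8.42 and 8.56 in WT and 7.37, 6.75 and 7.58 in PLZF_ON, a log2 difference of -1.53 over the 4 arrays (SE 0.24, limma adjusted p = 0.102). Over 6 arrays it was -1.35 (limma adjusted p = 0.142), and without PLZF_ON replicate 3 it was -1.52 and passed (limma adjusted p = 0.0407). In that setting 107 rows passed, against 22 over all 6 arrays. All 6 of the NKT1 markers measured (Tbx21, Klrb1c, Cxcr3, Ifng, Il12rb2 and Ccl5) had a lower mean in PLZF_ON. Of all rows, 50.7% had a lower mean over the 4 arrays and 45.1% over 6. The summed log2 level of the NKT1 markers was 11.83 to 12.19 in WT and 9.55 to 11.39 in PLZF_ON. Such a sum weighs bright markers most, among them Ccl5, which overlapped, at 10.29 to 11.15 in WT and 7.91 to 10.69 in PLZF_ON. Of the 6 markers, 5 were lower without overlap over 6 arrays, against 6.22% of all rows. The NKT2 markers (Gata3, Il4, Il13, Il17rb and Irf4) went the other way over the 4 arrays, with a median of 0.45. Their mean was higher in 5 of 5, against 11592 of all 23521 rows. At a limma unadjusted p under 0.05, 4 of the NKT2 markers were higher, against 4.88% of rows. Over 6 arrays 0 of them were, against 2.45% of rows, and their median was 0.22. Their summed level was 10.55 to 10.94 in WT, 11.31 and 11.53 in PLZF_ON replicates 1 and 2, and 10.14 in replicate 3. PLZF_ON replicate 2 had the lowest summed NKT1 level (9.55) and the lowest Tbx21, Klrb1c, Ifng and Ccl5. The lowest Il2rb level was in PLZF_ON replicate 3, as were those of Il12rb2 and Cxcr3. In PLZF_ON, Il12rb2 was at 7.11, 6.51 and 6.40 and Cxcr3 at 7.83, 6.99 and 6.56. The part of the NKT1 and NKT2 markers in the Il2rb difference was not tested.

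Il2ra encodes CD25, the alpha chain that raises the affinity of the receptor for interleukin-2. Its level was 6.16, 6.20 and 6.10 in WT and 6.07, 5.67 and 5.89 in PLZF_ON, so that the groups did not overlap, with PLZF_ON replicate 1 just under WT replicate 3. The log2 difference was -0.31 over the 4 arrays (SE 0.17, 95% interval -0.73 to 0.11, limma adjusted p = 0.689) and -0.28 over 6 (SE 0.16, limma adjusted p = 0.941), as without PLZF_ON replicate 3 (-0.28). Without PLZF_ON replicate 2 the 4-array difference was -0.11, and without PLZF_ON replicate 1 it was -0.52. Regulatory T cells carry CD25 constitutively, and of their 5 markers 3 lay above the background limit in mean (Ikzf2, Tnfrsf18 and Tnfrsf4) and Foxp3 and Ctla4 at or below it. Their summed log2 level was 9.79 to 9.86 in WT and 9.29 to 10.06 in PLZF_ON. Foxp3, the defining factor of these cells, lay between 5.02 and 5.14 on 5 arrays and at 5.60 in PLZF_ON replicate 3. Ctla4 was at 5.68 in that array and between 3.66 and 4.28 on the others. Ikzf2 was at 8.04 there and between 9.11 and 9.52 on the others. Over the 4 arrays 3 of the 5 markers had a lower mean and 2 a higher one. Tnfrsf4, which activated T cells also carry, did not overlap, at 5.80 to 6.19 in WT and 6.28 to 6.61 in PLZF_ON (0.39 over the 4 arrays, limma adjusted p = 0.471). Of all 23521 rows, 1305 were likewise higher without overlap over 6 arrays. The part of these markers in the Il2ra values was not tested.

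Il15ra encodes the chain that binds interleukin-15 and presents it to cells carrying Il2rb and the common gamma chain. It was at 6.55, 6.47 and 5.85 in WT and 6.52, 5.78 and 6.09 in PLZF_ON. The groups overlapped, with WT replicate 3 next to PLZF_ON replicate 2 and PLZF_ON replicate 1 next to WT replicate 1. The log2 difference was -0.36 over the 4 arrays (95% interval -0.96 to 0.25, limma adjusted p = 0.77) and -0.16 over 6 (95% interval -0.76 to 0.44, limma adjusted p = 0.947), and -0.14 without PLZF_ON replicate 3. It changed sign without PLZF_ON replicate 2, at 0.02 over both the 4 and the 6 arrays less that array. Il15ra and Il2ra are next to each other among the protein-coding genes of the RefSeq gene table (GRCm38.p6).

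Il7r encodes CD127, the interleukin-7 receptor chain, which sustains resting T cells and is high on NKT17 cells. Its level was 11.24, 11.01 and 11.00 in WT and 11.14, 10.98 and 10.37 in PLZF_ON, and the groups overlapped. Over the 4 arrays the log2 difference was -0.07, with a 95% interval of -0.44 to 0.30 (SE 0.15, limma adjusted p = 0.95). Over 6 it was -0.26 (SE 0.22, 95% interval -0.78 to 0.26), and -0.03 without PLZF_ON replicate 3. Within its array, Il7r stood between percentiles 99.4 and 99.6 on all 6. Of 4 NKT17 markers measured (Il1r1, Il23r, Sdc1 and Ccr6), 4 had a lower mean in PLZF_ON, against 50.7% of rows over 4 arrays and 45.1% over 6. The summed log2 level of these markers was 8.35 to 9.32 in WT and 6.59 to 6.85 in PLZF_ON. Il1r1 differed by -3.38 over 4 arrays and -2.99 over 6 (limma adjusted p = 0.0123 and 0.0459). Il23r differed by -3.15 and -3.04 (limma adjusted p = 0.0206 and 0.0184). Sdc1 (-1.74 and -1.78) and Ccr6 (-0.70 and -0.44) did not pass, and the dimmer Sdc1 row differed by -0.22 and -0.07. The part of the NKT17 markers in the Il7r values was not tested. Foxo1, a factor that activates Il7r, had a log2 difference of 0.37 over the 4 arrays (limma adjusted p = 0.528) and 0.18 over 6, or 0.36 without PLZF_ON replicate 3. Gabpa, another listed regulator of the receptor genes, went the other way, at -0.33 over the 4 arrays (limma adjusted p = 0.692). Over 6 arrays Gabpa differed by -0.46, or -0.32 without PLZF_ON replicate 3. Its groups did not overlap over the 6 arrays, as in 6.22% of all rows.

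Il21r encodes the chain that binds interleukin-21, a cytokine of helper T cells and iNKT cells. It had the narrowest spread in WT of the 9 genes, at 7.78, 7.74 and 7.72, and was at 7.58, 7.46 and 7.35 in PLZF_ON. The groups did not overlap, and the log2 difference was small, at -0.24 over the 4 arrays (95% interval -0.56 to 0.09, limma adjusted p = 0.692) and -0.28 over 6 (95% interval -0.61 to 0.06, limma adjusted p = 0.941), and -0.22 without PLZF_ON replicate 3. Ranked within its array, PLZF_ON replicate 3 lay at percentile 88.8, above the 3 WT arrays at 87.9 to 88.5. In the gene table Il21r is next to Il4ra, which encodes the chain that binds interleukin-4. Il4ra was at 6.70, 6.60 and 6.96 in WT and 6.09, 5.96 and 5.78 in PLZF_ON, without overlap. Its log2 difference was -0.63 over the 4 arrays (SE 0.14, limma adjusted p = 0.197) and -0.81 over 6 (SE 0.17, limma adjusted p = 0.262), or -0.73 without PLZF_ON replicate 3.

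**Figure D2:**
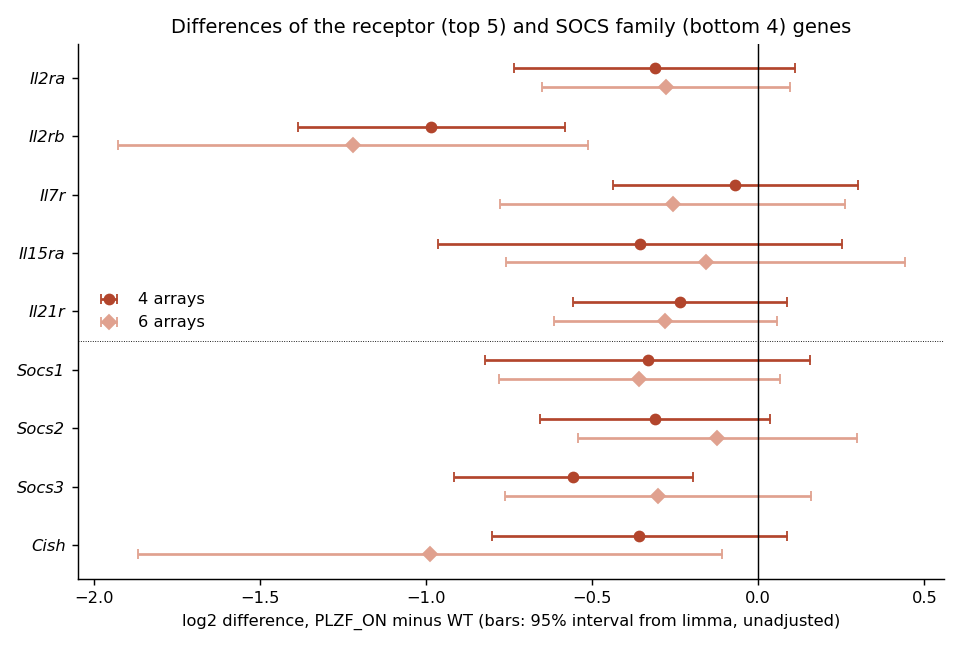
Log2 difference of PLZF_ON minus WT for each of the 9 genes over 4 arrays (circles) and over 6 arrays (diamonds), with unadjusted 95% intervals from limma; the dotted line parts the 5 receptor genes from the 4 SOCS family genes. The intervals leave out 0 for Il2rb in both comparisons, for Socs3 over 4 arrays (-0.92 to -0.20) and for Cish over 6 (-1.87 to -0.11).

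The SOCS family genes are direct targets of STAT factors, so the letters TTCNNNGAA, the core pattern that STAT dimers bind, were searched in promoters of RefSeq (GRCm38.p6). Windows ran from 250 bases before to 50 bases after a transcript start, and the pattern reads alike on both strands. A transcript start can lie inside the span of its gene. The Socs3 window (chr11:117969317-117969616) lay wholly inside the gene span of the gene table (117966079-117970336), and that of Il7r partly inside. Windows were found for 7 of the 9 genes, all but Il2rb and Socs2, 8 windows in all. The pattern was in 3 of them, against 8.3% of 32851 windows. Cish had 2 copies, as in 0.457% of windows, 1 directly at the start and the other at bases 12 to 20, and Socs3 and Il7r had 1 copy each. TTC and GAA with 4 bases between them were in 0 of the 8 windows, against 6.95% of all. Matches describe letters and do not show binding. The Cish window and the 250 bases before the transcript starts used for Socs3 and Il7r are shown because they hold the pattern, which is in capitals.
Cish, chr9:107296654-107296683, plus strand: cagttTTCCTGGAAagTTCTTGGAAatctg
Socs3, chr11:117969367-117969616, minus strand: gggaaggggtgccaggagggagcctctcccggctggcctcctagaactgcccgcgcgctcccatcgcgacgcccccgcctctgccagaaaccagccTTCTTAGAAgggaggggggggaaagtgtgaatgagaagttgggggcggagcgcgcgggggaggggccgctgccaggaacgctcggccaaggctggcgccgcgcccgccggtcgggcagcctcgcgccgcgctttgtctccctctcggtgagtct
Il7r, chr15:9529877-9530126, minus strand: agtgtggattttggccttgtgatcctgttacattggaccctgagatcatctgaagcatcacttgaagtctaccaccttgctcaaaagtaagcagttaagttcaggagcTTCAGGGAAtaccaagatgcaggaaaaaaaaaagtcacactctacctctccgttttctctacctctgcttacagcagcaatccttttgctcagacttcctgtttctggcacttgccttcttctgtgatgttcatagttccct

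Cish, whose protein CIS competes with STAT5 on the receptor and also damps T cell receptor signalling, carries the paired pattern. Its level was 7.33, 7.08 and 7.78 in WT and 7.03, 6.65 and 5.54 in PLZF_ON. The groups did not overlap, but PLZF_ON replicate 1 lay just below WT replicate 2, and the replicate 3 arrays were the highest of WT and the lowest of PLZF_ON. The log2 difference was thus -0.36 over the 4 arrays (SE 0.18, limma adjusted p = 0.651) and -0.99 over 6 (SE 0.38, limma unadjusted p = 0.0323, adjusted p = 0.773). Without PLZF_ON replicate 3 the latter was -0.55 (SE 0.23, limma adjusted p = 0.499). The 4-array value was -0.17 without PLZF_ON replicate 2, -0.23 without WT replicate 1 and -0.55 without PLZF_ON replicate 1. Within the arrays Cish stood at percentiles 83.9, 80.6 and 89.0 in WT and 80.0, 74.9 and 59.1 in PLZF_ON. Its dimmer row ran in the same order of arrays within each group, at 6.24, 5.95 and 6.71 in WT and 6.14, 5.71 and 4.97 in PLZF_ON. The groups of that row overlapped, and its log2 difference was -0.17 over the 4 arrays and -0.69 over 6.

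Socs3, which binds receptors of the interleukin-6 type and inhibits their Janus kinases, was at 5.91, 6.16 and 5.77 in WT and 5.51, 5.44 and 5.98 in PLZF_ON. PLZF_ON replicates 1 and 2 lay below every WT array, and PLZF_ON replicate 3 lay within the WT range. Over the 4 arrays the log2 difference was -0.56, or 1.47-fold lower (SE 0.15, 95% interval -0.92 to -0.20, limma unadjusted p = 0.00894, adjusted p = 0.287). Over 6 arrays it was -0.30 (SE 0.20, limma adjusted p = 0.941), and -0.47 without PLZF_ON replicate 3 (SE 0.15, limma adjusted p = 0.346), -0.19 without WT replicate 2 and -0.20 without PLZF_ON replicate 2. The other Socs3 row was at 5.47, 6.03 and 7.06 in WT and 4.73, 5.32 and 5.83 in PLZF_ON. It differed by -0.73 over the 4 arrays and -0.90 over 6, and its WT replicate 3 value of 7.06 had no match in the brighter row.

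Socs1, the inhibitor of Jak1 and Jak2 that restrains interferon-gamma and common gamma-chain signals, was at 7.73, 7.19 and 7.36 in WT and 7.13, 7.13 and 6.95 in PLZF_ON. The groups did not overlap, and WT replicate 2 lay just above PLZF_ON replicates 1 and 2. The log2 difference was -0.33 over the 4 arrays (SE 0.20, 95% interval -0.82 to 0.16, limma adjusted p = 0.721) and -0.36 over 6 (SE 0.18, limma adjusted p = 0.937), or -0.30 without PLZF_ON replicate 3 and -0.21 without WT replicate 1. Over the 4 arrays it was -0.06 without WT replicate 1 and -0.60 without WT replicate 2. By rank within the array the groups overlapped, with PLZF_ON replicate 3 at percentile 84.6 and WT replicate 2 at 81.9.

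Socs2, the SOCS protein best known for restraining growth hormone signals, was the dimmest row used, at 5.68, 5.47 and 5.45 in WT and 5.22, 5.31 and 5.71 in PLZF_ON. PLZF_ON replicate 3 was its highest value, and the other PLZF_ON arrays lay below WT. The log2 difference was -0.31 over the 4 arrays (SE 0.14, 95% interval -0.66 to 0.04, limma adjusted p = 0.593) and -0.12 over 6 (SE 0.18, limma adjusted p = 0.944). The 6-array value was -0.27 without PLZF_ON replicate 3, -0.03 without PLZF_ON replicate 1, -0.07 without PLZF_ON replicate 2 and -0.05 without WT replicate 1. The other Socs2 row had a mean of 4.69, below the background limit, and varied more, at 4.87, 6.07 and 4.64 in WT and 4.87, 3.09 and 4.61 in PLZF_ON. Its log2 difference of -1.49 over the 4 arrays (SE 0.63, limma adjusted p = 0.546) was set by WT replicate 2 and PLZF_ON replicate 2.

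**Figure D3:**
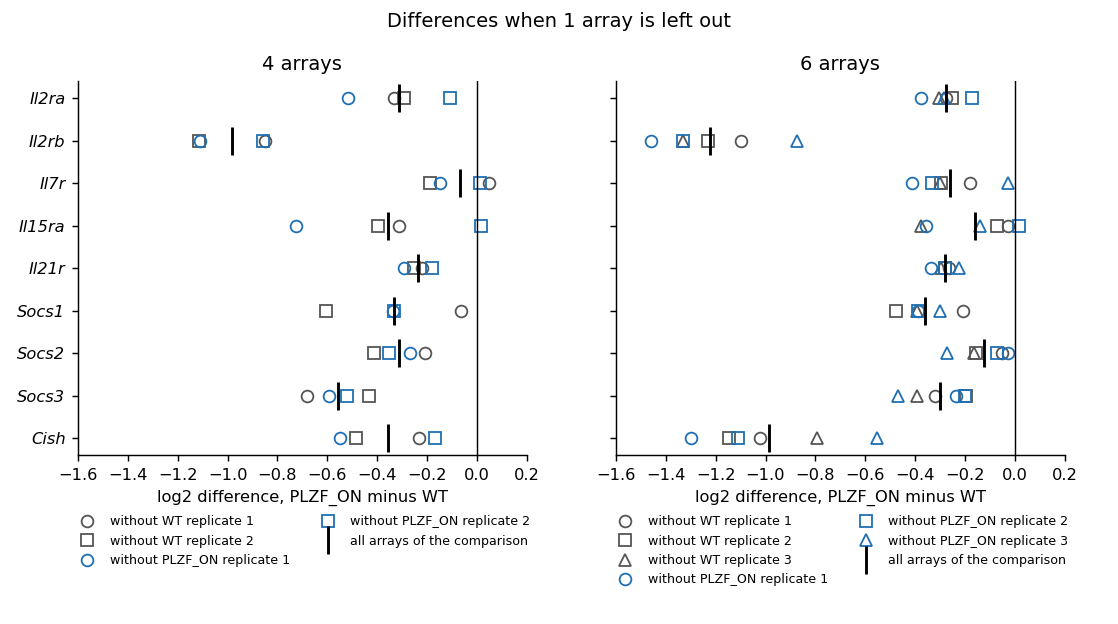
Log2 difference of PLZF_ON minus WT for the 9 genes with each array left out in turn (open symbols) and with all arrays of the comparison (black bar), for 4 arrays on the left and 6 on the right. Il2rb stayed between -1.12 and -0.85 over 4 arrays and between -1.46 and -0.87 over 6, while Il15ra crossed 0 in both and Il7r over 4 arrays.

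For Il2rb, the receptor gene with the smallest p over the 4 arrays, the genes of most similar pattern over the 6 arrays were B4galt1 (Pearson r = 0.998), 1300002E11Rik (0.997) and Irf2bpl (0.995). B4galt1, a galactosyltransferase, was at 7.88, 7.60 and 7.51 in WT and 7.11, 6.89 and 6.31 in PLZF_ON. Of 11081 brighter genes compared, 597 had an r above 0.9 with Il2rb, so such values were frequent, and the 3 named share their lowest level in PLZF_ON replicate 3. For Socs3 the most similar were Ppcs (0.996), Ppm1m (0.987) and Pwp2 (0.983), and 39 genes had an r above 0.9. These correlations describe 6 arrays and were not tested.

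The rest of the pathway did not share a single direction. Of 3 other receptor chains measured, Il4ra and Crlf2, the chain that pairs with Il7r for the cytokine TSLP, had lower means and Il9r a higher one over the 4 arrays. Crlf2 had a log2 difference of -0.28 and Il9r of 0.37 (limma adjusted p = 0.725 and 0.496), and over 6 arrays that of Il9r was 0.01, or 0.31 without PLZF_ON replicate 3. The common gamma chain itself, Il2rg, was not analysed here, nor was Jak3. Of the 7 ligands, 5 (Il2, Il7, Il9, Il15 and Tslp) lay at or below the background limit in mean. Il4, made by iNKT cells, was at 7.91, 8.33 and 7.84 in WT and 8.65, 8.50 and 7.60 in PLZF_ON, a log2 difference of 0.45 over the 4 arrays (limma adjusted p = 0.508) and 0.22 over 6, or 0.55 without PLZF_ON replicate 3. Il21 lay between 5.05 and 5.95 on all arrays.

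Among 9 Janus kinase and STAT genes measured, 7 had a lower and 2 a higher mean, with a median of -0.04, and 0 passed limma over all rows. Stat5b, the main STAT of these receptors together with Stat5a, was at 7.81, 7.73 and 7.17 in WT and 8.48, 8.28 and 6.98 in PLZF_ON. Its log2 difference was 0.61 over the 4 arrays (SE 0.14, limma adjusted p = 0.224) and 0.35 over 6 (SE 0.39), or 0.81 without PLZF_ON replicate 3, which was the lowest of all. Stat4, which transmits interleukin-12 signals, had a log2 difference of -1.51 (SE 0.61, limma adjusted p = 0.521). Its level of 6.27 in PLZF_ON replicate 2 stood against 8.35 to 9.25 on the other arrays. Tyk2 was at 7.81, 7.85 and 7.66 in WT and 7.53, 7.05 and 6.86 in PLZF_ON, without overlap (-0.54 over the 4 arrays, limma adjusted p = 0.433). Jak1, the kinase that pairs with Jak3 on these receptors, had a log2 difference of -0.01 over the 4 arrays.

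Of 9 other SOCS genes and negative regulators, 5 had a lower and 4 a higher mean over the 4 arrays, with a median of -0.04 and 0 passing. Socs4, Socs5, Socs6 and Socs7 had log2 differences of -0.17, 0.13, -0.04 and 0.25. Ptpn6, which encodes the phosphatase SHP-1, did not overlap, at 9.83, 9.66 and 9.58 in WT and 9.43, 9.14 and 8.69 in PLZF_ON (-0.46 over the 4 arrays, limma adjusted p = 0.434). Of 9 target genes of STAT5 and these cytokines, among them the survival genes Bcl2 and Mcl1 and the kinases Pim1 and Pim2, 6 had a lower and 3 a higher mean over the 4 arrays, with a median of -0.21, and 0 reached an unadjusted p under 0.05. Ccnd3, a cyclin, had the smallest p, with a log2 difference of -0.26 (limma adjusted p = 0.672). Over 6 arrays 7 of the 9 had a lower and 2 a higher mean, and only Myc reached an unadjusted p under 0.05. Myc differed by -0.28 over the 4 arrays and by -0.60 over 6 (limma unadjusted p = 0.0339, adjusted p = 0.783). Without PLZF_ON replicate 3 it differed by -0.44, and its groups overlapped. Mcl1 differed by -0.69 over 6 arrays without overlap, and by -0.21 without PLZF_ON replicate 3. The dimmer Mcl1 row overlapped between the groups.

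Of 6 regulators of the receptor genes, 4 had a lower and 2 a higher mean, and 0 passed. Beside Tbx21, the factor Runx3 was at 8.78, 8.69 and 8.88 in WT and 7.69, 6.76 and 7.45 in PLZF_ON, without overlap, a log2 difference of -1.51 over the 4 arrays (SE 0.30, limma adjusted p = 0.166) and -1.48 over 6 (SE 0.24, limma adjusted p = 0.128), or -1.56 without PLZF_ON replicate 3. Eomes, a relative of T-bet, overlapped, between 4.60 and 5.85 in WT and between 4.22 and 6.33 in PLZF_ON. Of 11 receptors outside the family that also use Janus kinases, 7 had a lower and 4 a higher mean. At a limma unadjusted p under 0.05, 4 of the 11 were lower and 3 higher over the 4 arrays. Of all rows, 4.53% were lower and 4.88% higher at that threshold, and of the 11761 brighter rows 805 and 871. None of the 11 passed after adjustment over the 4 arrays. Il12rb2, a chain of the interleukin-12 receptor, was at 9.18, 8.54 and 9.21 in WT and 7.11, 6.51 and 6.40 in PLZF_ON. It differed by -2.05 over the 4 arrays (SE 0.28, limma adjusted p = 0.075) and fell by 2.31 over 6 (SE 0.26, limma adjusted p = 0.0425). Without PLZF_ON replicate 3 it fell by 2.17 (limma adjusted p = 0.0278), but did not pass without WT replicate 1, WT replicate 2 or PLZF_ON replicate 2, where 0 rows passed. Without WT replicate 3 only 1 row passed and without PLZF_ON replicate 1 only 6, and whether Il12rb2 was among them is not given here. Il6ra, the interleukin-6 receptor, was at 7.22, 7.18 and 7.41 in WT and 8.59, 8.24 and 7.15 in PLZF_ON, a log2 difference of 1.22 over the 4 arrays (SE 0.16, limma adjusted p = 0.075) and 0.73 over 6 (SE 0.34, limma adjusted p = 0.906). Without PLZF_ON replicate 3 the latter was 1.15 and passed (limma adjusted p = 0.0401). In that setting 107 rows passed, against 22 over all 6 arrays. Ifngr2, a chain of the interferon-gamma receptor, was higher in each PLZF_ON array, at 6.07, 6.34 and 6.09 in WT and 7.17, 6.77 and 6.58 in PLZF_ON (0.77 over the 4 arrays, limma adjusted p = 0.252).

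**Figure D4:**
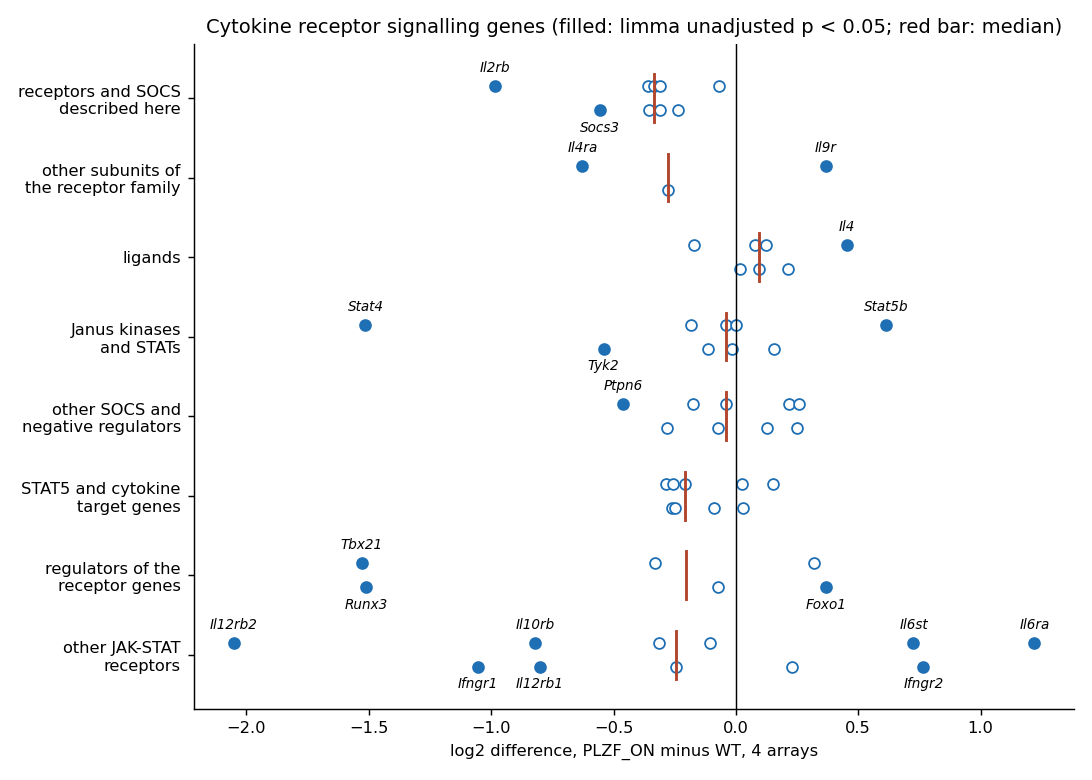
Log2 difference of PLZF_ON minus WT over 4 arrays for the 9 genes (top) and for 7 groups of related signalling genes, 1 point per gene. Filled points have a limma unadjusted p under 0.05, none passed after adjustment, and red bars are medians, which were -0.33 for the 9 genes and -0.04 for the Janus kinases and STATs.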

How the data were processed

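The authors deposited log2 expression values, 1 row per array feature, made with RMA, per the submitters' processing notes, which give no version; RMA compresses changes of dim genes. The deposited arrays did not all share 1 distribution of values. The sources used here do not give the array annotation or genome build used upstream. The values were used as deposited. Of 41345 rows, 23521 had exactly 1 gene symbol in the platform annotation and were tested; 1814 had several and 16010 were not listed.

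Groups followed the sample titles. PLZF_ON was compared with WT over 4 arrays (replicates 1 and 2) and over 6, by two-sided tests with genotype as the only term (R 4.3.3, limma 3.58.1, functions lmFit and eBayes, no variance trend), adjusted by Benjamini-Hochberg over all tested rows at 0.05. The fits had 2 and 4 residual degrees of freedom, and the number of arrays limits the precision. Intervals are moderated and unadjusted. Summed levels of lists are the log2 of summed linear values. The background limit is not a detection call.

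The genes, gene lists and tests were chosen with earlier results of these data known. Named were the 9 genes, up to 4 genes of smallest p per pathway list, and the 3 genes of highest correlation with 1 receptor and 1 SOCS gene. Genes of the cell type marker lists, Jak1, Socs4 to Socs7, Il21, Eomes, Ifngr1, Bcl2, Pim1 and Pim2 and genes of small counts were named after their values were seen. Dim rows were kept. The fit was tested on simulated data. Alternatives tried were leaving out each array, quantile normalization, median centring, brighter rows alone, a variance trend, array weights, all deposited rows, averaged rows per gene, and a replicate block. Figures were drawn with matplotlib 3.10.9.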

Additional observations from a re-analysis of the deposited data

How the results depend on the processing

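None of the 9 genes passed limma after adjustment under any alternative, and the lowest adjusted p was 0.0503, for Il2rb over 6 arrays with array weights (0.0691 over 4 arrays, with a variance trend; up to 0.418 over 4 and 0.999 over 6). Il2rb kept an unadjusted p under 0.05 in all 11 alternatives over 4 arrays and all 14 over 6. Leaving out each array, Il7r ran from -0.19 to 0.0495 over 4 arrays, and Il15ra from -0.73 to 0.0165 over 4 and from -0.38 to 0.0178 over 6; the positive values came without WT replicate 1 (Il7r, 0.0495) or PLZF_ON replicate 2 (Il7r, 0.011; Il15ra, 0.0165 over 4 arrays and 0.0178 over 6). The other genes kept their sign.

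Over all rows, 40 passed over 4 arrays and 22 over 6. Leaving out each array gave 0 to 106 and 0 to 107. Over 4 arrays the 0 came without PLZF_ON replicate 2 (1803 rows at an unadjusted p under 0.05) and 106 without WT replicate 2; over 6 the count was 0 without WT replicate 1 (852), WT replicate 2 (960) or PLZF_ON replicate 2 (1531), 1 without WT replicate 3, 6 without PLZF_ON replicate 1 and 107 without PLZF_ON replicate 3. With all deposited rows 0 passed limma in either comparison (3042 and 2100 unadjusted). Over 6 arrays median centring gave 5 and array weights 259. The causes were not tested. Where leaving out an array left 1 in a group, its spread was taken from the other group.

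The replicate number as a block gave 101 rows over 4 arrays and 30 over 6. The labels do not say that numbers pair arrays. Deviations from the group mean correlated at 0.0916, 0.253 and 0.2385 for arrays of the same number. For arrays of different numbers the correlations were negative, down to -0.235, except for PLZF_ON replicate 1 with WT replicate 2 (0.1239). PLZF_ON replicate 1 was thus the only array that did not match its own number best. With the block, Il2rb had an adjusted p of 0.0735 over 4 arrays and 0.148 over 6.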
